A study of Mus musculus with 288 samples.

Results

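Cathepsins are the proteases of the lysosome, the acidic compartment in which cells break down protein and lipid. They are made as inactive precursors, are sorted to the lysosome largely by mannose 6-phosphate tags, and are activated there by low pH and by cleavage. Heavily glycosylated membrane proteins of the LAMP family line that compartment and shield it from its own enzymes. In alveolar type 2 cells, which store surfactant in lysosome-related organelles called lamellar bodies, and in secretory club cells of the airway, the same machinery also serves secretion. The genes described here were 5 cathepsins (Ctsd, Ctsb, Ctsl, Ctsz and Ctsc), 3 lysosomal membrane proteins (Lamp1, Lamp2 and Cd63) and Psap, the precursor of the saposins, which help lysosomal enzymes to degrade sphingolipids. They were chosen by name, and all 9 were present among the 24781 genes of the count table.

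Single lung cells came from C57BL/6 mice, 4 months old, with the alleles Scgb1a1-CreER and Rosa26-mTmG. The first is an inducible recombinase driven by the promoter of a club cell secretoglobin gene, and the second is a reporter that switches colour after recombination. Epithelial cells (Epcam+CD45-CD31-, CD24low) of the marked lineage were sorted into 286 wells, and 2 negative control wells held medium. The inducing agent and its timing were not among the labels, and all sorted cells share 1 genotype, strain, age and gate. The labels do not tie cells to animals, so the wells are 1 sample; p-values and standard errors, which need replicate animals, are left out.

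Of the 286 wells, 227 had totals above 2340 counts, 10 times the total of the higher control, and were kept. Wells in which Sftpc, the gene of surfactant protein C and a marker of alveolar type 2 cells, made up at least 1% of the counts are called Sftpc wells (63 wells, median total 3529 counts, range 2384 to 8806). Of the rest, wells with at least 1% of counts from Scgb3a1, a secretoglobin of airway secretory cells, are called Scgb3a1 wells (74 wells, median 6940.5, range 3376 to 15088). The remaining 90 are called other wells (median 5406, range 2419 to 9718). No well met both rules. The Sftpc shares nearest the limit were 2.07% and 0.734%, and those of Scgb3a1 were 1.01% and 0.876%. Shallower wells show a gene less often, so shares of wells are also given after thinning to 3151 counts. This left out the shallower wells, 19 of the 63 Sftpc wells, 4 of the 90 other wells and no Scgb3a1 well. By the numbers in the sample titles, which are the only further grouping, cells 1 to 94 gave 6 Sftpc wells, cells 95 to 190 gave 17 and cells 191 to 286 gave 40, against 38, 31 and 5 Scgb3a1 wells.

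The marker lists matched these names in part. All 10 listed alveolar type 2 markers were at least 2-fold higher in Sftpc wells than in other wells, with summed levels of 70451 and 13276 CPM (counts scaled to a common total per class or well). Club markers summed to 59889 CPM in Sftpc wells, 306398 CPM in Scgb3a1 wells and 383311 CPM in other wells. By well their medians were 19755, 306397 and 396099 CPM, and single Sftpc wells ran from 6392 to 274516 CPM. Macrophages are rich in cathepsins, and 16 of the 21 macrophage and leukocyte markers listed had no count in any kept well, among them Ptprc, the gene of the CD45 antigen, and Ctss. The list summed to 199 CPM in Sftpc wells (0 to 958 CPM by well), 355 CPM in Scgb3a1 wells (0 to 1157 CPM) and 228 CPM in other wells (0 to 1607 CPM), and 209 of its 345 counts came from Cd14 and 125 from Lcp1. The controls held 41 and 234 counts and none from the 9 genes, a depth at which up to 10909 CPM could pass unseen.

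Lysosomal genes are often described by a short promoter motif, the E-box that the factor TFEB and its relatives bind, and this is where the 9 genes differ in sequence. RefSeq windows on GRCm38.p6, from 250 bases before to 50 bases after each annotated start, matched 8 of the 9 genes, all but Ctsb. The motif CACGTG, which reads the same on both strands, was in the windows of 3 of these 8 genes (Ctsd, Lamp1 and Ctsl) and in 7.15% of all 32851 windows of the same length. Lamp1 held 4 copies within a short stretch between positions -61 and -15, counting the start base as 0. Ctsd held 1 copy at -98 and 1 near the far edge of its window, and Ctsl held 1, also near that edge. The stretches are printed 5′ to 3′ along the gene, with the motif in capitals.
Lamp1, chr8:13159088-13159163, plus strand: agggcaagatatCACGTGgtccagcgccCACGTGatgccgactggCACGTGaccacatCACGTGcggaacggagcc
Ctsd, chr7:142387908-142387937, minus strand: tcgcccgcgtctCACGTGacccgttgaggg
Ctsl, chr13:64370739-64370768, minus strand: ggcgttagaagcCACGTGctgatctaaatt
The windows of Ctsc, Psap, Cd63, Lamp2 and Ctsz did not hold these letters. RefSeq starts can differ from the gene spans given below. The Cd63 window (128909095 to 128909394) lay inside the span that begins at 128900989, so the stretch at that beginning was not searched. The printed Ctsd and Ctsl stretches also lay inside the spans of their genes. Ctsc and Psap differed at least 2-fold between classes of wells in the results that follow. They were among the genes without a match in this window, as were Cd63, Lamp2 and Ctsz. Whether the motif relates to the levels was not tested.

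Together the 9 genes gave 2614 counts in the kept wells, and no kept well lacked all of them. They made up 0.272% of all counts in Sftpc wells (95% Poisson interval 0.251 to 0.293%), 0.165% in Scgb3a1 wells (0.154 to 0.177%) and 0.220% in other wells (0.208 to 0.234%). By well, the summed level ran from 1232 to 4739 CPM in Sftpc wells with a median of 2936 CPM. In Scgb3a1 wells it ran from 530 to 3258 CPM around 1593 CPM, and in other wells from 663 to 5345 CPM around 2184 CPM. A median of 5 of the 9 genes had a count in a Sftpc well, and 6 in a well of each other class, and at equal depth these medians were 5, 4 and 5. The summed level was thus highest in Sftpc wells, but the ranges of the 3 classes overlapped widely. In values added after these were seen, the 8 genes without Ctsc made up 0.193% of counts in Sftpc wells (0.176 to 0.212%), 0.161% in Scgb3a1 wells (0.150 to 0.173%) and 0.206% in other wells (0.194 to 0.219%). With TMM factors, which scale totals without genes of extreme ratio, all 9 genes made up 0.231%, 0.182% and 0.234%. In both, Sftpc wells were no longer above other wells.

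A gene was called higher or lower when its pooled CPM differed at least 2-fold, the 95% interval of the ratio left out 1, and the summed counts of the 2 classes reached 20. Intervals in the text are exact, cover counting error only and would be too narrow if copies made by PCR were counted separately. Between Sftpc wells and other wells, 1 of the 9 genes was higher (Ctsc), where 14.6% of 3854 measured genes were, and 1 was lower (Psap), where 7.34% were. Between Scgb3a1 wells and other wells, none was higher, where 6.77% of 4536 measured genes were, and 1 was lower (Ctsc), where 7.12% were. Between Sftpc wells and Scgb3a1 wells, 1 was higher (Ctsc), where 17.3% of 3834 measured genes were, and 1 was lower (Psap), where 10.5% were. The number of the 9 genes called was close to these backgrounds in each comparison, and the comparisons share their wells.

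The median log2 ratio of the 9 genes was -0.15 for Sftpc wells against other wells, beside 0.18 over all measured genes. For Scgb3a1 wells against other wells the medians were -0.30 and -0.02, and for Sftpc wells against Scgb3a1 wells they were 0.38 and 0.20. These medians depend on the scaling, because a few secretory genes take much of the counts. With TMM factors the median over all genes moved from 0.18 to -0.14 for Sftpc wells against other wells, and calls went from 563 higher and 283 lower to 373 and 423. For Sftpc wells against Scgb3a1 wells it moved from 0.20 to -0.18, with 664 and 402 calls becoming 431 and 624. The calls of Ctsc and Psap were the same with either scaling.

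**Figure D1:**
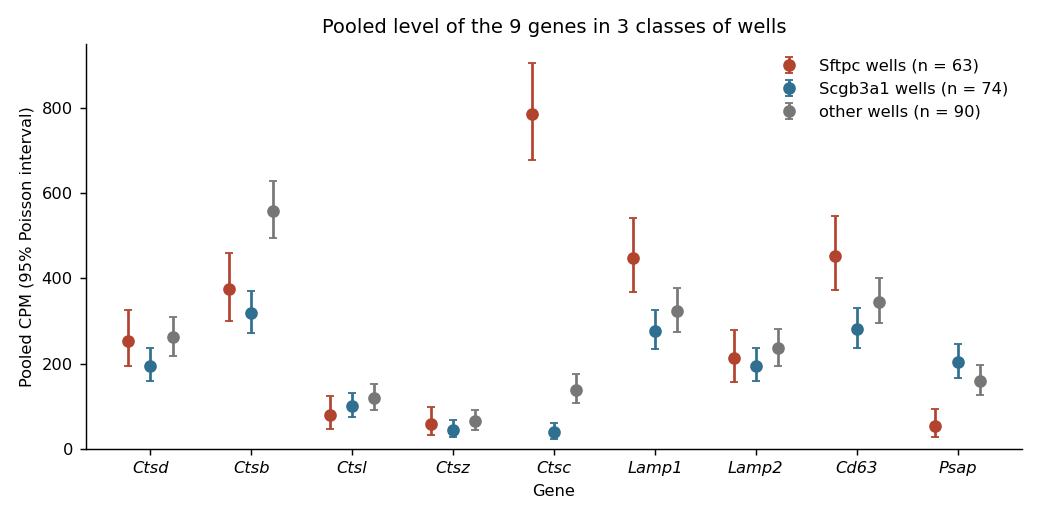
Pooled CPM (y axis) of each of the 9 genes (x axis) in Sftpc, Scgb3a1 and other wells, with exact 95% Poisson intervals. Ctsc stands at 785 CPM in Sftpc wells against 39.0 CPM in Scgb3a1 wells, Psap is lowest in Sftpc wells at 54.0 CPM, and the other genes lie closer together.

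Ctsc, cathepsin C, is the dipeptidyl peptidase that trims the precursors of granule serine proteases, and it lies on the plus strand of chromosome 7 from 88278085 to 88310888 (GENCODE M21, GRCm38). It was the gene that separated the classes most. Its level in single Sftpc wells ran from 0 to 2578 CPM with a median of 810 CPM, and the most counts in a well were 8. In other wells it ran from 0 to 737 CPM and in Scgb3a1 wells from 0 to 621 CPM, both with a median of 0. Single wells of the classes therefore overlapped below about the median of the Sftpc wells, while 9 Sftpc wells and no well of the other classes held 5 or more counts.

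Pooled Ctsc was 785 CPM in Sftpc wells (677 to 906), 139 CPM in other wells (108 to 175) and 39.0 CPM in Scgb3a1 wells (23.8 to 60.2), and none of these intervals met. The level in Sftpc wells was 5.67-fold that in other wells (4.29 to 7.57) and 20.1-fold that in Scgb3a1 wells (12.7 to 33.7), and Scgb3a1 wells stood at 0.281-fold other wells (0.162 to 0.468). A count was found in 90.5% of Sftpc wells, 48.9% of other wells and 23.0% of Scgb3a1 wells. At equal depth, over 44, 86 and 74 wells, the shares were 88.6%, 32.6% and 6.76%. Outside the Sftpc class, 7 wells held 3 or 4 Ctsc counts, with 0 to 2 counts of the macrophage list and at most 0.170% Sftpc. The same 7 wells held 47 to 170 counts of the listed alveolar type 2 markers, in totals of 4828 to 8152 counts. By well this list ran from 0 to 35357 CPM in other wells and from 362 to 29028 CPM in Scgb3a1 wells. The medians were 12571 and 5455 CPM, so such counts are common outside the Sftpc class. Whether these markers and Ctsc went together in such wells was not tested.

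The runs of cell numbers gave the same direction for Ctsc in Sftpc wells. The ratio to other wells was 2.88 in cells 1 to 94 (1.45 to 5.50, from 6 Sftpc wells), 4.95 in cells 95 to 190 (3.12 to 7.93) and 12.6 in cells 191 to 286 (5.63 to 35.0). Pooled Ctsc in Sftpc wells was 447, 741 and 888 CPM in these runs. Pooling gives deep wells more weight. In cells 1 to 94 the deepest Sftpc wells were cells 43, 16 and 87, with 8806, 6906 and 6557 counts. They held 2, 3 and 2 Ctsc counts, and Sftpc shares of 2.07%, 5.36% and 6.70% beside a class median of 16.6%. The part of these wells in the order of the runs was not tested. The ratio of Scgb3a1 wells to other wells was 0.218 and 0.213 in the runs that held nearly all Scgb3a1 wells. In the last run, with 5 Scgb3a1 wells, it was 2.21 from 4 and 6 counts, and its interval (0.459 to 9.32) included 1.

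**Figure D2:**
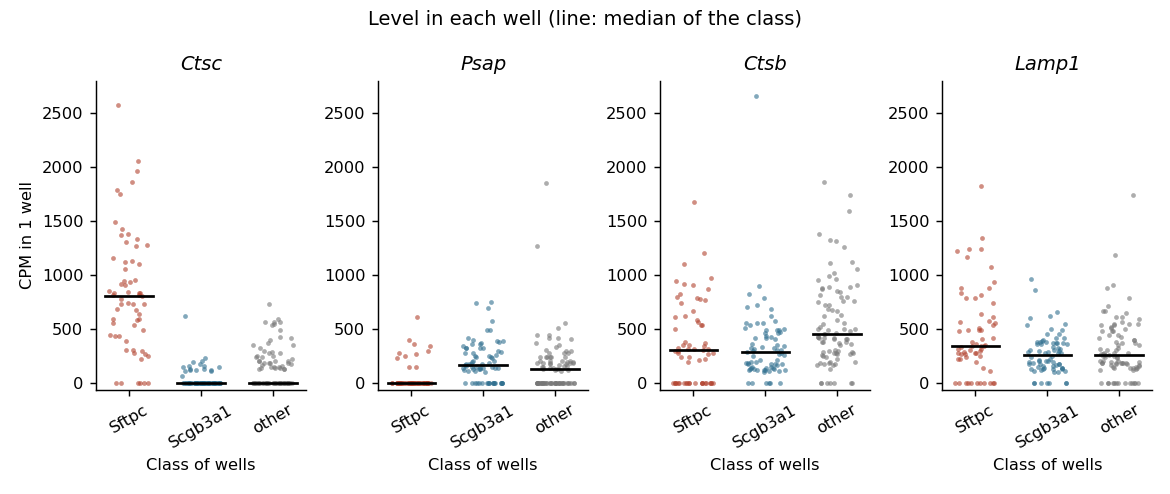
CPM of Ctsc, Psap, Ctsb and Lamp1 in each kept well (1 point per well, y axis) by class (x axis), with a line at the median of the class. Ctsc fills the range up to 2578 CPM in Sftpc wells and has medians of 0 elsewhere, while most Sftpc wells have no Psap count.

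Ctsd, cathepsin D, is the main aspartic protease of the lysosome (minus strand of chromosome 7, 142375911 to 142388038). It ran from 0 to 2187 CPM by well in Sftpc wells with a median of 227 CPM, from 0 to 964 CPM around 141 CPM in Scgb3a1 wells, and from 0 to 1744 CPM around 198 CPM in other wells. Pooled Ctsd was 253 CPM in Sftpc wells (194 to 326), 195 CPM in Scgb3a1 wells (159 to 237) and 261 CPM in other wells (219 to 310). Sftpc wells did not differ from either class beyond counting error. The ratio of Scgb3a1 wells to other wells was 0.746 (0.569 to 0.975), short of 2-fold.

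Ctsb, cathepsin B, is a cysteine protease that cuts within proteins and trims their ends (plus strand of chromosome 14, 63122462 to 63145923). It ran from 0 to 1862 CPM with a median of 456 CPM in other wells, from 0 to 1678 CPM around 310 CPM in Sftpc wells and from 0 to 2666 CPM around 286 CPM in Scgb3a1 wells. Pooled levels were 558 CPM (495 to 627), 374 CPM (301 to 460) and 318 CPM (271 to 370) in the same order. Ctsb was thus highest in other wells, with ratios of 0.670 for Sftpc wells (0.522 to 0.852) and 0.569 for Scgb3a1 wells (0.466 to 0.693), neither of which reached 2-fold. Sftpc and Scgb3a1 wells did not differ beyond counting error (ratio 1.18, 0.900 to 1.53), and with TMM factors this log2 ratio turned from 0.23 to -0.14. Within the 5 Scgb3a1 wells of the last run the ratio to other wells was 1.70 (0.966 to 2.90), against 0.534 and 0.480 in the earlier runs.

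Ctsl and Ctsz gave few counts. Ctsl, a cysteine endopeptidase (minus strand of chromosome 13, 64359337 to 64370890), was at 78.9 CPM in Sftpc wells (47.5 to 123), 99.4 CPM in Scgb3a1 wells (74.0 to 131) and 119 CPM in other wells (90.6 to 153). By well it reached 732, 520 and 826 CPM from a lowest level of 0, with medians of 0, 33.1 and 0 CPM. Ctsz, a carboxypeptidase (minus strand of chromosome 2, 174427493 to 174439039), was at 58.2 CPM (31.8 to 97.6), 44.8 CPM (28.4 to 67.2) and 65.3 CPM (45.0 to 91.7), with medians of 0 and highest wells of 343, 331 and 415 CPM. For both genes every ratio interval between classes included 1, so no order of the classes can be read at this depth.

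Lamp1 and Lamp2 encode the most abundant glycoproteins of the lysosomal membrane. Lamp1 (plus strand of chromosome 8, 13159161 to 13175338) ran from 0 to 1824 CPM around 346 CPM in Sftpc wells, from 0 to 961 CPM around 264 CPM in Scgb3a1 wells and from 0 to 1744 CPM around 257 CPM in other wells. Pooled Lamp1 was 449 CPM (368 to 542), 277 CPM (233 to 326) and 323 CPM (275 to 376). The Sftpc wells were 1.62-fold above Scgb3a1 wells (1.25 to 2.10) and 1.39-fold above other wells (1.08 to 1.78), and the latter classes did not differ beyond counting error. By run, the ratio to other wells was 0.992 (0.431 to 2.03), 1.85 (1.21 to 2.80) and 0.885 (0.588 to 1.34), so the difference was seen in cells 95 to 190 and not in the last run, which held 40 of the 63 Sftpc wells. Lamp2 (minus strand of chromosome X, 38401357 to 38456454) was at 212 CPM (158 to 279), 195 CPM (159 to 237) and 236 CPM (195 to 282), with wells from 0 to 1258, 975 and 1148 CPM and medians of 198, 170 and 190 CPM. Every ratio interval of Lamp2 included 1.

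Cd63, a tetraspanin of late endosomes and lysosome-related organelles (plus strand of chromosome 10, 128900989 to 128912822), had the same order of classes as Lamp1. By well it ran from 0 to 1619 CPM around 389 CPM in Sftpc wells, from 0 to 894 CPM around 266 CPM in Scgb3a1 wells and from 0 to 1336 CPM around 308 CPM in other wells. Pooled Cd63 was 453 CPM (372 to 546), 281 CPM (237 to 330) and 344 CPM (295 to 400). Sftpc wells were 1.61-fold above Scgb3a1 wells (1.25 to 2.08) and 1.32-fold above other wells (1.03 to 1.68). The ratio to other wells was 1.14, 1.06 and 1.46 by run, and each of these intervals included 1. With TMM factors the log2 ratio to Scgb3a1 wells went from 0.70 to 0.32 for Lamp1 and from 0.69 to 0.32 for Cd63, and among wells above 4000 counts that of Cd63 to other wells was -0.03.

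**Figure D3:**
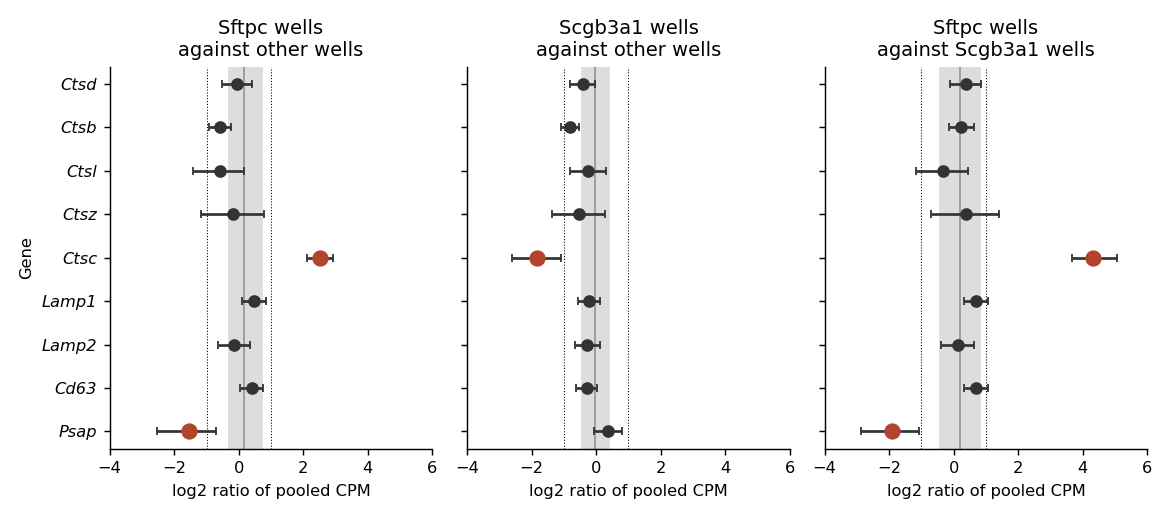
Log2 ratio of pooled CPM (x axis) of the 9 genes (y axis) in the 3 comparisons, with 95% intervals of counting error; red points are called, dotted lines mark 2-fold, and the grey line and band are the median and quartiles of all measured genes. Ctsc lies far outside the band in all 3 panels and Psap in both panels with Sftpc wells.

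Psap (plus strand of chromosome 10, 60277627 to 60302597) showed nearly the reverse order of Ctsc. It ran from 0 to 612 CPM in Sftpc wells with a median of 0, from 0 to 751 CPM around 171 CPM in Scgb3a1 wells and from 0 to 1851 CPM around 132 CPM in other wells. No Sftpc well held more than 2 counts, although single wells of all classes overlapped. Pooled Psap was 54.0 CPM in Sftpc wells (28.8 to 92.4), 203 CPM in Scgb3a1 wells (166 to 246) and 158 CPM in other wells (126 to 197). The ratio of Sftpc wells was 0.341 to other wells (0.174 to 0.617) and 0.267 to Scgb3a1 wells (0.137 to 0.476), and the latter classes did not differ beyond counting error (1.28, 0.947 to 1.74).

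A Psap count was found in 17.5% of Sftpc wells, 73.0% of Scgb3a1 wells and 55.6% of other wells, and at equal depth in 13.6%, 48.6% and 38.4%. The ratio of Sftpc to other wells was 0.616 in cells 1 to 94 (0.120 to 1.99), 0.544 in cells 95 to 190 (0.165 to 1.42) and 0.145 in cells 191 to 286 (0.0428 to 0.395). Its direction was thus shared by the runs, but only the interval of the last run left out 1, and without that run the call was lost (log2 ratio -0.83). Ctsc without Psap was found in 48 of 63 Sftpc wells, 6 of 74 Scgb3a1 wells and 17 of 90 other wells. Psap without Ctsc was found in 2, 43 and 23 wells of these classes. These counts are at unequal depth and were not set against those that the separate shares of wells would give. Within classes the log2 levels of Ctsc and Psap had r = -0.16 in Sftpc, -0.06 in Scgb3a1 and 0.03 in other wells.

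**Figure D4:**
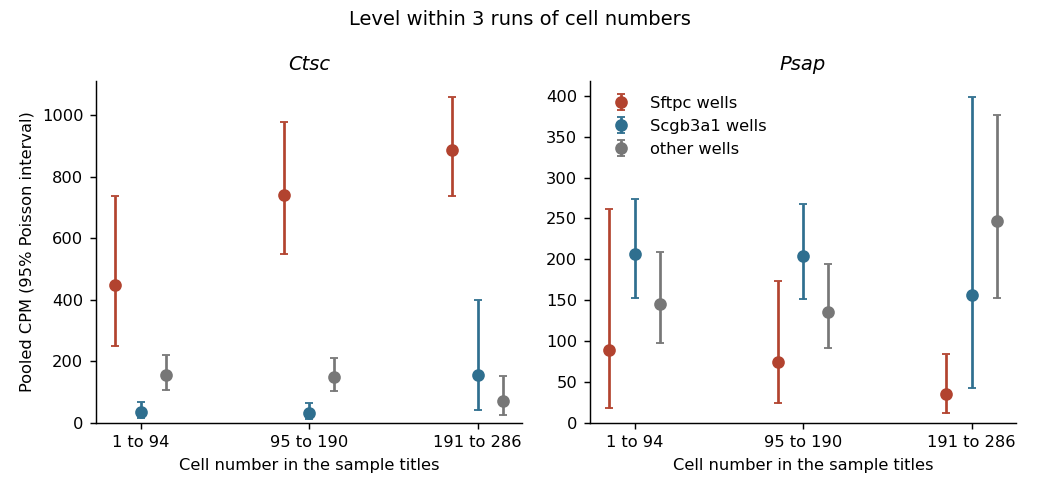
Pooled CPM (y axis) of Ctsc and Psap by class within 3 runs of cell numbers from the sample titles (x axis), with exact 95% Poisson intervals. Ctsc is highest in Sftpc wells in each run, from 447 to 888 CPM, and the last run has only 5 Scgb3a1 wells and wide intervals for them.

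Wells with under 1% Sftpc were also split into steps by their share of Scgb3a1. The steps under 1% are the other wells and those from 1% are the Scgb3a1 wells. The fall of Ctsc and Ctsb between these sets of steps therefore repeats the comparison of the classes. Pooled Ctsc was 142 CPM in 67 wells without a Scgb3a1 count (106 to 187), 129 CPM in 23 wells above 0 and under 1% (76.4 to 204), 53.1 CPM in 40 wells from 1 to under 5% (29.0 to 89.0) and 24.1 CPM in 34 wells at 5% or more (8.83 to 52.4). Ctsb was 574, 516, 379 and 253 CPM in the same steps, with intervals of 499 to 658 CPM at the first and 194 to 323 CPM at the last. Within each class the intervals of neighbouring steps overlapped for Ctsc and for Ctsb, and no interval of the ratio between steps was computed. Psap was 161, 150, 212 and 193 CPM, with intervals that overlapped. Within Sftpc wells, Ctsc was 956 CPM (780 to 1161) in the 32 wells at or under the median Scgb1a1 share of 0.968%. It was 649 CPM (520 to 801) in the 31 above it. These single intervals overlapped slightly, which does not show equal levels, and no interval of the ratio was computed for this split.

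**Figure D5:**
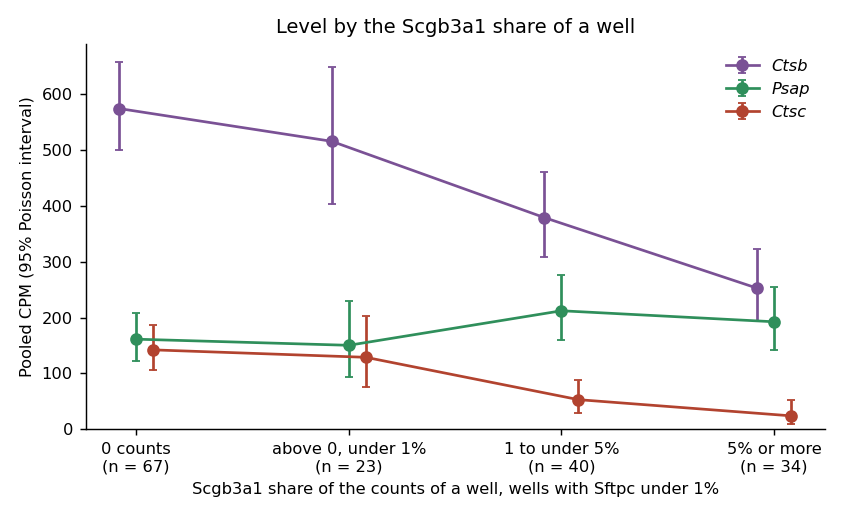
Pooled CPM (y axis) of Ctsb, Psap and Ctsc in wells with under 1% Sftpc, by the share of counts from Scgb3a1 (x axis), with exact 95% Poisson intervals. Ctsb goes from 574 to 253 CPM and Ctsc from 142 to 24.1 CPM over the 4 steps. The steps under 1% are the other wells and those from 1% the Scgb3a1 wells, and within each class the intervals of each gene overlap. The Psap intervals overlap throughout.

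The spread of the 9 genes between single wells was set against that of counting. At equal depth the variance of counts over their mean, which is 1 for pure counting, lay between 0.76 and 1.54 over the 27 combinations of gene and class. The 36 pairs of genes had correlations of log2 level between -0.31 (Ctsc with Psap) and 0.21 (Ctsc with Lamp1) over the 227 wells. Within Sftpc wells Ctsc and Lamp1 had r = 0.34, the highest of the 36 pairs there. The same pair had -0.02 in Scgb3a1 wells and 0.03 in other wells. Ctsc with Psap had -0.16, -0.06 and 0.03 within Sftpc, Scgb3a1 and other wells. Wells share library depth, and these counts are sparse, so the values describe and no more.

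Likeness was sought for the 6 genes with a mean of at least 1 count per well, over the 475 genes that reached that mean. Ctsc was most like Lamp3 (r = 0.72), the LAMP family member of lamellar bodies, Rnase4, a secreted ribonuclease (r = 0.72), and Sftpc (r = 0.71). Within Sftpc wells alone these were 0.25, 0.47 and 0.07, so most of the likeness lay between classes. Ctsb was most like Por, the reductase that feeds electrons to cytochrome P450 enzymes (r = 0.30). Ctsd, Lamp1, Lamp2 and Cd63 had no gene at or above 0.3.

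The lysosomal genes of lamellar bodies gave a scale for the difference in Ctsc. Lamp3 was 182-fold higher in Sftpc than in other wells (70.3 to 670, from 346 and 4 counts), and Napsa, the aspartic protease that processes surfactant protein precursors, 115-fold (66.8 to 217). Napsa had no count in Scgb3a1 wells, which put Sftpc wells at least 506-fold higher against a floor of 3 counts over the class. Ctsh, a cathepsin that takes part in the same processing, was 2.98-fold above other wells (2.40 to 3.70) and 3.58-fold above Scgb3a1 wells (2.86 to 4.51). Ctsc thus lay between Ctsh and Napsa in this ratio.

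Related genes came from lists of the lysosomal pathway, and a list is described by its counts alone. They are to be read beside the 14.6% of all measured genes called higher in Sftpc than in other wells. Against Scgb3a1 wells the share called higher was 17.3%. With TMM factors these shares were 9.68% and 11.2%. The shares called lower were 7.34% and 10.5%, and 11.0% and 16.3% with TMM factors. Between Scgb3a1 and other wells, 6.77% of all measured genes were higher and 7.12% lower. Of 9 further cathepsins only Ctsh and Ctsa reached 20 counts, and Ctsh was the 1 called. Of 25 further lysosomal membrane proteins, 8 were measured between Sftpc and other wells, 3 were higher and none lower. The largest ratios were those of Lamp3 and of Npc1, the cholesterol exporter of the lysosome, at 36.4-fold (11.8 to 182) from 52 and 3 counts. Of 41 soluble hydrolases and cofactors, 16 were measured, 2 were higher and none lower. The largest ratio was that of Lgmn, an asparaginyl endopeptidase that processes cathepsins, at 5.60-fold (2.08 to 17.5).

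Between Scgb3a1 and other wells, 21 of these hydrolases and cofactors were measured, 1 was higher and 1 lower. Of all measured genes, 6.77% were higher and 7.12% lower there. Ppt1, a thioesterase, was 3.28-fold higher (1.27 to 9.99), and Npc2, a sterol carrier that hands cholesterol to Npc1, was at 0.263-fold (0.227 to 0.303), with 466 CPM against 1773 CPM. Against Scgb3a1 wells, Sftpc wells had 7.56-fold more Npc2 (6.54 to 8.76) and 2.53-fold more Smpd1, the acid sphingomyelinase (1.54 to 4.19). Of 16 subunits of the vacuolar ATPase, the pump that acidifies the lysosome, 15 were measured between Sftpc and other wells. Only Atp6v1a was called, at 2.00-fold (1.27 to 3.14), and 4 of 14 were higher against Scgb3a1 wells.

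The genes that sort enzymes to the lysosome were called higher in Sftpc than in other wells for 3 of 9 measured, none being lower. Gnptg and Gnptab, subunits of the enzyme that begins the mannose 6-phosphate tag, stood at 4.72-fold (1.95 to 12.6) and 4.20-fold (1.59 to 12.3). These ratios rest on 18 against 8 counts and 14 against 7. Against Scgb3a1 wells 2 of 9 were higher, Gnptab at 3.73-fold and Sort1 at 3.20-fold, and Gnptg was not called. Of the cathepsin inhibitors, 4 were measured between Scgb3a1 and other wells and 2 were higher: Serpinb1a, at 61.0-fold (10.6 to 2449) from 62 counts and 1 count, and Serpinb6a, at 2.42-fold (1.51 to 3.98). Serpinb1a had no count in Sftpc wells. Of 15 regulators of lysosomal genes, 7 or 8 were measured in each comparison and none was called. Beside Cd63, 2 of 6 measured tetraspanins were higher in Sftpc than in other wells (Cd81 at 3.04-fold and Cd151 at 2.45-fold) and 2 were lower (Tspan13 at 0.200-fold and Tspan1 at 0.268-fold). Cd81 was also lower in Scgb3a1 than in other wells, at 0.102-fold (0.0199 to 0.329), and Tspan13 was higher there, at 4.31-fold (2.66 to 7.30).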

How the data were processed

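The authors deposited 1 table of whole-number counts, 1 row per gene symbol (286 single cells and 2 controls). Per the labels' protocols, heat-fragmented RNA was reverse transcribed with a barcoded oligo-dT primer and template switching, and amplified by PCR. The submitters' processing notes name STAR and mm10. Not given in the sources used here are the annotation, the counter, its use of strand and whether barcodes were collapsed. Counts tag ends of transcripts, so levels are compared between wells and not between genes. Fdft1 overlaps Ctsb, Nelfcd overlaps Ctsz and Grtp1 overlaps Lamp1 on the opposite strand, with 59, 21 and 2 counts. Counts of Gm49369, which overlaps Ctsd on its own strand, were not used here.

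The 9 genes and all lists were chosen with earlier results of these data known. Pooled CPM had Poisson intervals, shares of wells Clopper-Pearson intervals and ratios exact conditional binomial intervals, all at 95% (scipy 1.17.1, pandas 2.3.3). A class at 0 was set to 3 counts. A well that met both rules would have counted as a Sftpc well. From each list the 2 largest ratios called higher and the 2 smallest called lower per comparison were named, with Ctsh, Napsa and Lamp3; 1 gene that this rule names is not reported here. Likeness was Pearson's r of log2 of counts per 10000 plus 1. TMM factors came from edgeR 4.0.16 on class sums. The scripts were tested on simulated data.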

Additional observations from a re-analysis of the deposited data

Results flagged for a closer look

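The 59 wells left out for totals at or below 2340 counts held 115 counts of the 9 genes, 1890 CPM of their 60845 counts, while the controls held none. Of these wells, 27 met the Sftpc rule, and their Ctsc stood at 725 CPM (459 to 1088, from 23 counts), beside 785 CPM in the kept Sftpc wells. In the 29 left-out wells that met neither rule Ctsc had 1 count, a ratio of 17.9 (2.91 to 738), and Psap had 3 counts against 0 in the 27. These wells are shallow, and Rn45s, the ribosomal RNA precursor, took 24.7% of their counts against 9.51% in kept wells. Its part in these values was not tested.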

How the results depend on the processing

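No paired analysis was possible because all sorted cells are 1 sample and the numbers shared by control and cell titles mark no pair. Of 17 alternatives, leaving out wells that met both rules changed nothing, as there were none. Over the other 16, 92 of 96 counts of called genes equalled the reported count, which was 0 or 1. Dropping the count minimum, 1 of these 16, could not move a call either, since all 9 genes reached it in every comparison. At a limit of 1.5-fold, 3 genes were higher in Sftpc than in Scgb3a1 wells (Ctsc, Lamp1 and Cd63) and 2 were lower in Scgb3a1 than in other wells (Ctsb and Ctsc). With thinned counts 2 genes were lower in Sftpc than in other wells (Ctsl and Psap), and without cells 191 to 286, which held 40 of the 63 Sftpc wells, 0 were. That alternative has fewer wells; whether the level itself differed by run was not tested. Of the alternatives, 14 could move a ratio, and under these the 5 called ratios kept their direction in 70 of 70 values. Ctsc in Sftpc wells ran from 4.22 to 6.58-fold other wells and from 15.5 to 27.1-fold Scgb3a1 wells. Psap ran from 0.263 to 0.564-fold other wells. Ratios that were not called kept their direction in 292 of 308 values. Precision is limited by 0.206 to 3.13 counts per gene and well, and no difference has a replicate check.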
